A study of Mus musculus with 6 samples.

Results

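The genes described here build and serve cilia: intraflagellar transport (IFT) subunits and their motors, subunits of the BBSome, and proteins of the ciliary transition zone. They were taken by gene symbol, not by a cut on their values. Earlier results of these data were known when the genes and marker lists were chosen. Of 18194 genes that the platform annotation names alone on a probe set, 38 had a symbol of the IFT, Bbs, dynein-2, kinesin-2, tectonic, B9 domain or Nphp series, or were Tulp3, Mks1 or Cep290. Arl6 and Arl13b, which the same rule names, were not analysed here. The 38 genes are represented by 64 of the 45101 probe sets, and the probe set of highest mean signal stood for each gene. The rule also took in B9d1os, a transcript from the strand opposite B9d1, which read between 22.1 and 66.4 and lay below the filter on dim probe sets, so 37 genes were tested. RNA came from the olfactory epithelium of mice homozygous (3 arrays) or heterozygous (3 arrays) for OMP-GFP, and each sample was hybridised to an Affymetrix mouse array. As background knowledge, this allele puts green fluorescent protein in place of the coding sequence of Omp, the gene of olfactory marker protein, so homozygous mice lack the protein and heterozygous mice keep an intact copy. All 6 samples therefore carry the GFP allele, and the labels name no wild-type group, age, sex or strain. Since they do not tell pooled RNA from that of single animals, the p-values here rest only on the spread between samples, which may be technical.

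A cilium is assembled by trains of IFT proteins that run along its microtubules. Outward transport is driven by kinesin-2 motors and needs the IFT-B complex, and return transport is driven by dynein-2 and needs the IFT-A complex. The BBSome carries membrane proteins on and off these trains, and the transition zone at the base acts as a gate. In this tissue the mature olfactory neurons bear immotile cilia that hold the odorant receptors and transduction channels, and patches of respiratory epithelium carry motile cilia. Mice with mutations in Bbs1, Bbs4, Cep290 or Ift88 lose olfactory cilia or their function.

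Some of these genes share a promoter feature that the choice by symbol did not use. Promoters of cilia genes often hold the X-box, the binding motif of RFX transcription factors. It was searched here as GTNNCC followed, after any 3 letters, by GNAAC, N being any letter, on both strands of the RefSeq windows of GRCm38.p6, which run from 250 bases before to 50 bases after an annotated gene start. A window was matched for 34 of the 38 genes, and 10 of these (29.4%) held the motif, against 673 of 27025 genes with a window (2.49%) and 323 of 9249 tested genes with a window (3.49%). A gene with several annotated starts counted if any of its windows held the motif, and in B9d2 and Nphp4 not all did. The core GTTGCC, which many of these matches contain, lay in 20 of the 34 (58.8%), against 14.1% of all genes with a window. No window was held for Ift122, Ift80, Ift81 and Dync2li1. The 3 whole windows below are shown because their motif matches on both strands, each read 5′ to 3′ on the strand of its gene with the match in capitals.
Tctn1, chr5:122264411-122264710, minus strand: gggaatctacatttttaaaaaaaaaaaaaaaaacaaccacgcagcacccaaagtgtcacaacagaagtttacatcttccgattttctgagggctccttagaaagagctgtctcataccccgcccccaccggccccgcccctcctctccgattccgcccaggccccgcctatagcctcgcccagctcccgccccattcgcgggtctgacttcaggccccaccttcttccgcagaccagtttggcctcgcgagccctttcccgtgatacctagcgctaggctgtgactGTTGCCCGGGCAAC
Mks1, chr11:87852965-87853264, plus strand: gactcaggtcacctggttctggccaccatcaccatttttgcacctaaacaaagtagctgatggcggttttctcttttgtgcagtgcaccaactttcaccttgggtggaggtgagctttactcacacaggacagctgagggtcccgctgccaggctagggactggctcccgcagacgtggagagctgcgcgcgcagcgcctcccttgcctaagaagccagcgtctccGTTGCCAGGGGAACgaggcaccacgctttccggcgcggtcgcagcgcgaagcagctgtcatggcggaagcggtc
Bbs7, chr3:36613340-36613639, minus strand: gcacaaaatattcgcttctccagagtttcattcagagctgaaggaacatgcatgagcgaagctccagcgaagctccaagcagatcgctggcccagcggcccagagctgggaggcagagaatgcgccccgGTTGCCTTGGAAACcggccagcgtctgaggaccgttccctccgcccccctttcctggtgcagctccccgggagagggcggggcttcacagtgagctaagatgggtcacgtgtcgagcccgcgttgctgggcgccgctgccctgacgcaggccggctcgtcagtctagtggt
The matches were centred at 43 in Tctn1, at -17 in Mks1 and at -114 in Bbs7, counted in bases from the annotated start. The other 7 genes with a match are shown as the motif in capitals with 8 bases on each side, on the strand of the gene. In Bbs1, Ift57 and Tctn2 the match is on the opposite strand, so it is the reverse complement of the capitals that fits the searched letters.
B9d2: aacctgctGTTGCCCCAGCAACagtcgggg
Bbs1: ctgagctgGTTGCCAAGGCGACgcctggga
Bbs4: ctcagctgGTCGCCCGGGAAACggtcggct
Ift22: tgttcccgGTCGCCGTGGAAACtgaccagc
Ift57: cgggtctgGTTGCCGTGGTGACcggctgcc
Nphp4: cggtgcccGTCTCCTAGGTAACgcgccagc
Tctn2: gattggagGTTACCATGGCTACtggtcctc
Ift22 held another match, also on the opposite strand and shown on that of the gene, ctgtcaggGTTTCCTGGGCTACtgcgcagc. Over the 10 genes there were 11 sites, centred between -224 and 43. A match is a run of letters and not a shown binding site. Only this spacing of the motif was searched, so genes without a match may hold it at another spacing.

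Some arrays stood apart in ways that touch the comparison. At 1 probe set of Omp, 1422199_at, the signal was 5.7, 8.8 and 31.3 in homozygous arrays, and 26.3, 4664 and 9143 in heterozygous arrays, so the array labelled heterozygous 1 lay with the homozygous ones. The other, 1422200_at, read between 7919 and 8774 in homozygous arrays and between 7968 and 8709 in heterozygous arrays. Where either lies in the gene is not known here, and the label was kept. Defining markers of the tissue were present. The 8 mature olfactory neuron markers found of 10 listed summed to between 62745 and 66233 in homozygous arrays and between 52913 and 69461 in heterozygous arrays. The 16 respiratory multiciliated cell markers found of 18 listed summed to between 8728 and 9517 in homozygous and between 8209 and 9243 in heterozygous arrays, with 3 of them (Dnaic1, Spag6 and Spag17) below the filter. Spag6 read near the floor, between 3.9 and 18.8 in homozygous arrays and between 0.7 and 0.9 in heterozygous arrays. The 8 immature olfactory neuron markers summed to between 39490 and 40192 in homozygous arrays and between 41123 and 43422 in heterozygous arrays, without overlap. All 8 were lower in homozygous arrays, by a median log2 difference of -0.083. Of these, 0 had an unadjusted p under 0.05 in limma, beside 2.56% of all genes lower at that p. The part of this shift in the values of the cilia genes was not tested. The 8 sustentacular cell markers, of the supporting cells, summed to between 58864 and 64144 in homozygous arrays and between 57394 and 62764 in heterozygous arrays. Heterozygous 1 stood out for the 8 myelin and glia markers found of 10 (21773, against 10991 to 11658 on the other arrays), heterozygous 3 for the 9 bulb and brain markers found of 10 (3130, against 1517 to 1945), and homozygous 1 for the 5 red cell markers found of 9 (1925, against 438 to 856). The myelin excess rested mainly on Mbp (7268.5) and Pmp22 (4898.6), while Fabp7 (6290.3) and Mog (2.4) were lowest in heterozygous 1. The brain excess rested mainly on Rbfox3 (791.1), Cplx1 (738.2) and Camk2a (458.2), while Eomes (205.2) was lowest in heterozygous 3. Of these lists Mag and Mog, Tbr1, Gad1, Slc17a7 and Th, and Hba-a1 and Epb42 lay below the filter.

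**Figure D1:**
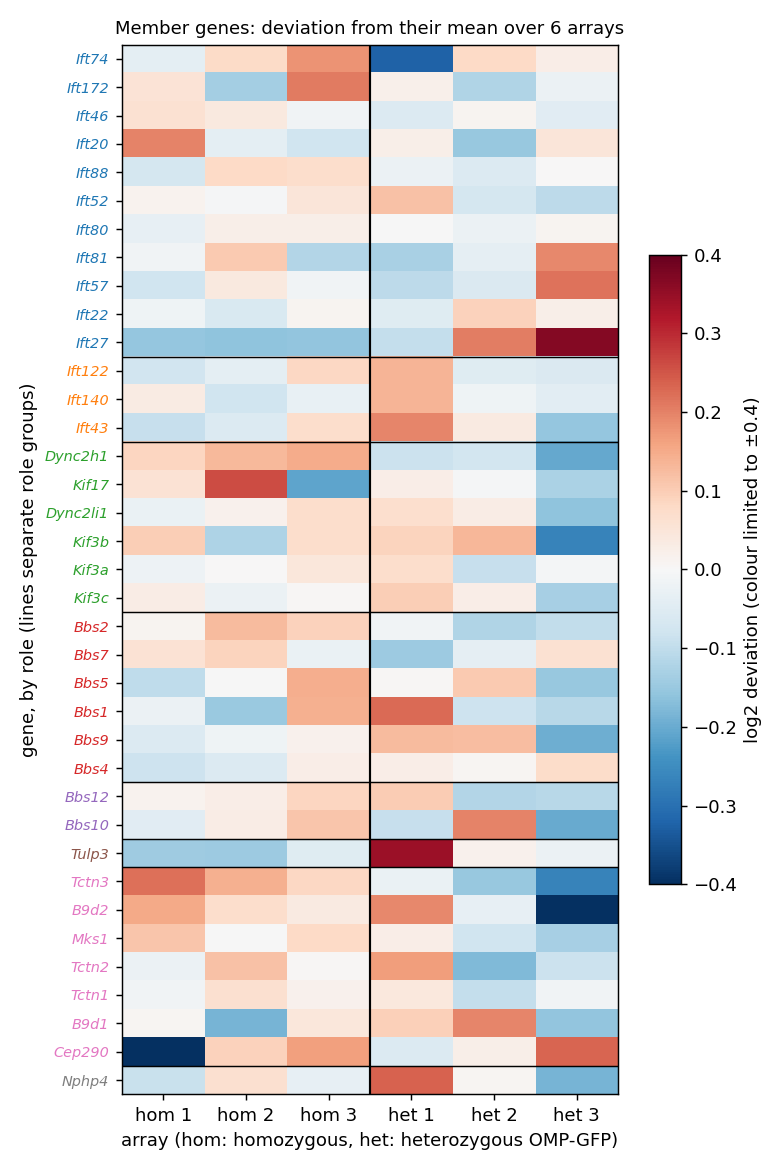
Log2 deviation of each of the 37 tested genes (rows, grouped and coloured by role) from its own mean over the 6 arrays (columns, 3 homozygous left and 3 heterozygous right). Most cells are pale, and the widest spans between arrays are those of Cep290 (0.69), low in homozygous 1, and B9d2 (0.60), low in heterozygous 3.

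None of the 37 tested genes passed the test between homozygous and heterozygous arrays after adjustment over all genes. In limma 0 of 11426 genes (0.0%) had an adjusted p under 0.05, and the lowest adjusted p among the 37 was 0.951. At an unadjusted p under 0.05 in limma, 2 of the 37 were higher (Tctn3 and Dync2h1), beside 2.6% of all genes tested, and 1 was lower (Ift27), beside 2.56%. All homozygous arrays lay on one side of all heterozygous arrays for 3 genes that were higher, adding Bbs2, beside 4.82% of all genes, and for 2 that were lower, Ift27 and Tulp3, beside 5.51%. In all, 8.11% of the 37 genes had an unadjusted p under 0.05 in limma, against 5.16% of all genes, and 13.5% did not overlap, against 10.3%, so both shares were near the background. Without heterozygous 1, at the same unadjusted p in limma, 3 were higher (Tctn3, Dync2h1 and B9d2), beside 3.82% of all genes, and 1 was lower (Ift27), beside 3.49%. Without heterozygous 3, 2 were higher (Tctn3 and Dync2h1), beside 3.63%, and 1 was lower (Tulp3), beside 4.01%. The tissue is a mixture, so fewer cells of a type and less RNA per cell cannot be told apart in any of these values.

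Most differences were small. They are given on the log2 scale, homozygous minus heterozygous, after an offset of 38.8 was added to the signal, and each error is a standard error (SE). The median over the 37 was 0.029, against -0.0 over all genes tested, and 28 of the 37 lay within 0.1 of 0. The median size was 0.054, against 0.074 over all genes. For 34 of the 37 the 95% interval of the difference lay within 0.5 of 0 on either side, and for Ift27, Tctn3 and Cep290 it reached -0.56, 0.50 and -0.50. By sign alone, 23 differences were positive and 14 negative, but the split was 16 and 21 with array medians equalised, and 29 and 8 without heterozygous 1. Between the highest and the lowest of the 6 arrays the genes spanned a median of 0.32, as over all genes, from 0.06 for Ift80 to 0.69 for Cep290.

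**Figure D2:**
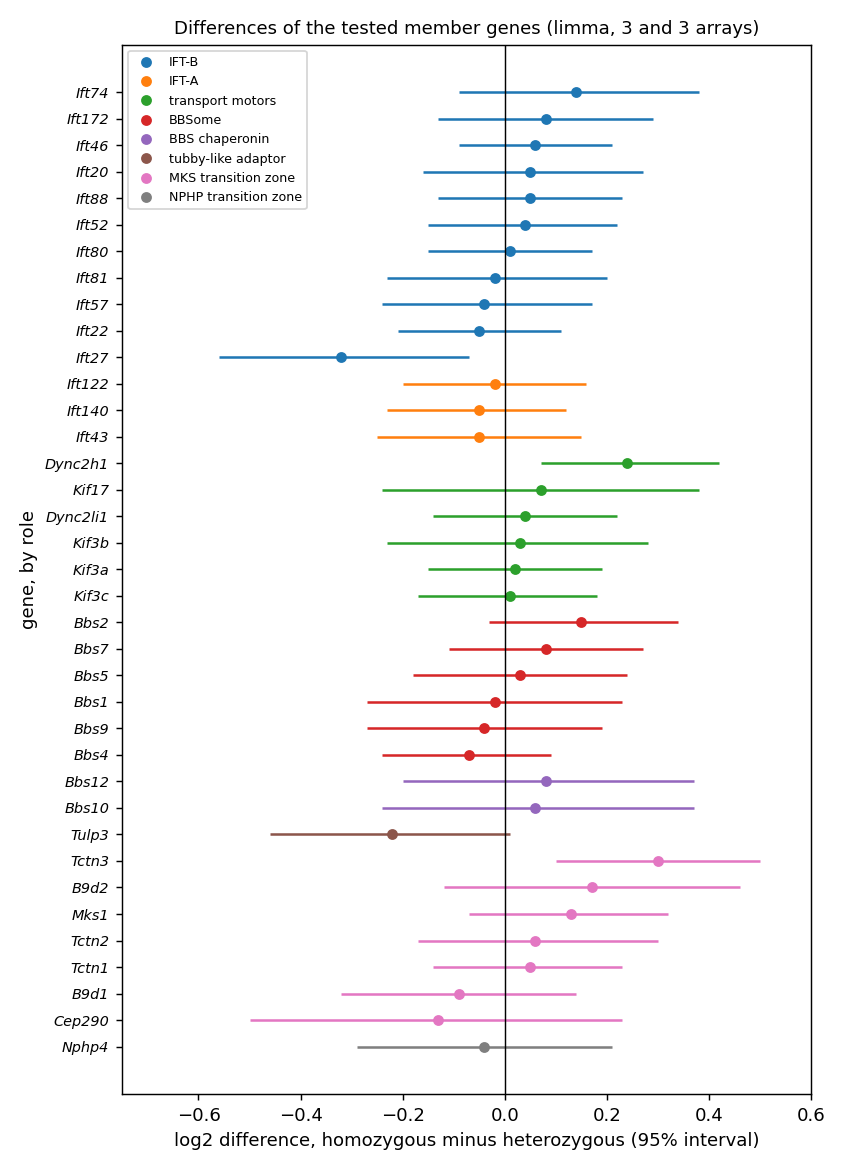
Log2 difference, homozygous minus heterozygous, of the 37 tested genes with the 95% interval from limma (x axis), ordered by role (y axis, colours). The intervals of Tctn3 (0.10 to 0.50), Dync2h1 (0.07 to 0.42) and Ift27 (-0.56 to -0.07) do not reach 0, and those of the other 34 do.

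Among the 11 IFT-B genes, 7 were higher and 4 lower, with 0 and 1 at an unadjusted p under 0.05 in limma, beside 2.6% and 2.56% of all genes, so the single gene is near that background. Ift27 encodes a small GTPase-like subunit that pairs with the Ift25 protein and acts in the exit of the BBSome from cilia. Its signal at 1434299_x_at was 948, 944 and 946 in homozygous arrays, against 989.9, 1229 and 1378 in heterozygous arrays. All 3 homozygous arrays lay within a few units of each other and below every heterozygous array, while the heterozygous arrays were spread, with heterozygous 1 close to the homozygous level. The difference was -0.32 ± 0.11 (SE), with an unadjusted p of 0.0149 and an adjusted p of 0.951 in limma. Without heterozygous 3, in which mature neuron markers were lowest, it was -0.21 with an unadjusted p of 0.0534 in limma. Leaving out heterozygous 1 gave -0.44 and an adjusted p of 0.183 in limma, the lowest over all alternatives run.

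The other IFT-B genes overlapped between groups. Ift74, whose product binds tubulin together with that of Ift81, read 2247, 2440.2 and 2619.8 in homozygous arrays, against 1838, 2442 and 2356 in heterozygous arrays. Heterozygous 1 alone was low, and without it the difference of 0.14 ± 0.11 became 0.02. Ift172, a large peripheral subunit, read 1448, 1263 and 1612 in homozygous arrays, against 1412, 1278 and 1368 in heterozygous arrays. Its highest and its lowest array were both homozygous, and its difference was 0.08 ± 0.10. Ift22, a GTPase-like subunit, read 1838, 1782 and 1876 in homozygous arrays, against 1800.0, 1989 and 1893 in heterozygous arrays, with a difference of -0.05 ± 0.07. Ift88, a core subunit, had 875 ± 52.4 over the 3 homozygous arrays and 841 ± 17.2 over the 3 heterozygous arrays (both SD), a difference of 0.05 ± 0.08 whose 95% interval ran from -0.13 to 0.23. The remaining 6 were Ift46 at 0.06, Ift20, a subunit also found at the Golgi, at 0.05, Ift52 at 0.04, Ift80 at 0.01, Ift81 at -0.02 and Ift57 at -0.04. Ift80 was the steadiest of the 37, reading 1387, 1445 and 1444 in homozygous arrays, against 1419, 1399 and 1433 in heterozygous arrays.

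The differences of the 3 IFT-A genes lay close to each other. Ift43, a small peripheral subunit, read 4040.2, 4142 and 4528 in homozygous arrays, against 4935, 4421 and 3863 in heterozygous arrays. Its highest and its lowest array were both heterozygous, and its difference was -0.05 ± 0.09. Ift140, a core subunit, read 1738, 1604 and 1661 in homozygous arrays, against 1871, 1676 and 1649 in heterozygous arrays, with a difference of -0.05 ± 0.08. Ift122, another core subunit, differed by -0.02 ± 0.08. Heterozygous 1 was the highest array for all 3 genes, and without it all 3 differences were positive, with a median of 0.034 in place of -0.051.

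The 6 motor genes had differences from 0.01 to 0.24, all positive on the deposited scale, but 4 of the 6 turned negative once the array medians were equalised, and 3 without heterozygous 3. Dync2h1, the heavy chain of the dynein-2 motor that returns IFT trains to the cell body, read 964, 995 and 1007 in homozygous arrays, against 850.4, 857 and 780.1 in heterozygous arrays. Every homozygous array lay above every heterozygous one. Its mean signal was 1.19 times as high in homozygous arrays, the difference was 0.24 ± 0.08, and limma gave an unadjusted p of 0.0115 and an adjusted p of 0.951. Leaving out any single array left the difference between 0.20 and 0.27. With the array medians equalised it was 0.202, with an unadjusted p of 0.0625 in limma. Its light intermediate chain partner Dync2li1 read 1534, 1580.1 and 1639.8 in homozygous arrays, against 1639, 1595 and 1393 in heterozygous arrays, a difference of 0.04 ± 0.08. The groups overlapped for this gene. Kif17, a kinesin-2 that works as a homodimer, read 278, 326 and 224 in homozygous arrays, against 271, 265 and 240.0 in heterozygous arrays, with overlap and a difference of 0.07 ± 0.14. Kif3b, Kif3a and Kif3c, chains of the heteromeric kinesin-2 motors, differed by 0.03, 0.02 and 0.01. Kif3a read 1546, 1569 and 1619 in homozygous arrays, against 1648, 1469 and 1557 in heterozygous arrays, and Kif3c read 2248, 2165 and 2210.3 in homozygous arrays, against 2359, 2243 and 2005 in heterozygous arrays. In both, all 3 homozygous arrays lay inside the heterozygous range. The mature olfactory neuron markers averaged -0.248 in heterozygous 3 against their mean over the arrays, the motor genes -0.150 and Dync2h1 was lowest there. The part of the neuron markers' shift in these values was not tested.

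**Figure D3:**
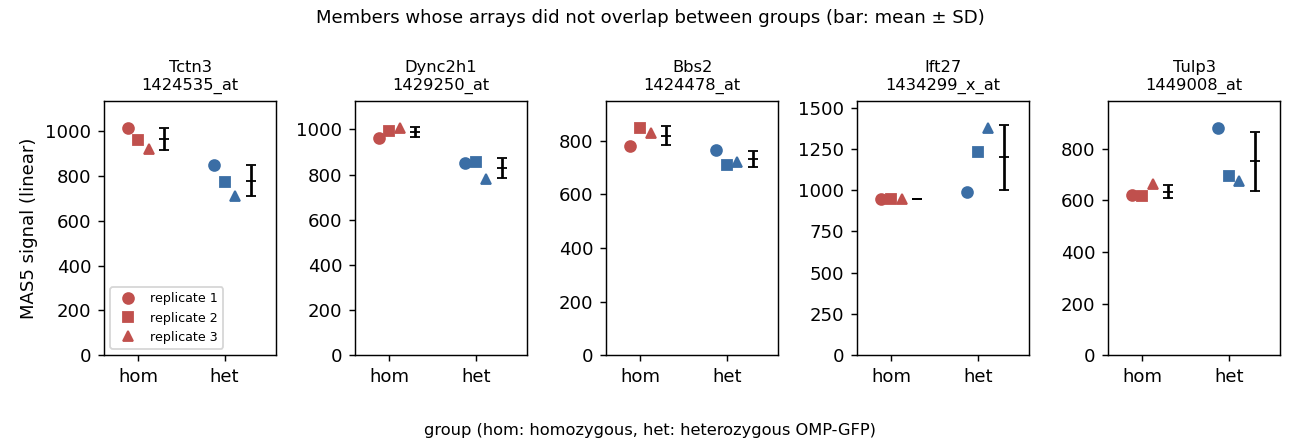
MAS5 signal on a linear scale (y axis from 0, 1 panel per gene) in the 3 homozygous arrays (red, left) and the 3 heterozygous arrays (blue, right), with the mean and SD beside each group, for the 5 genes whose arrays did not overlap. Tctn3, Dync2h1 and Bbs2 sit higher in homozygous arrays, and Ift27 and Tulp3 lower, with heterozygous 1 nearest to the homozygous level for Ift27 and farthest from it for Tulp3.

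The 6 BBSome genes split evenly, 3 higher and 3 lower. Bbs2 read 780.0, 848 and 827 in homozygous arrays, against 766, 708 and 719.8 in heterozygous arrays. The groups did not overlap, though homozygous 1 and heterozygous 1 lay close, and the difference of 0.15 ± 0.08 had an unadjusted p of 0.0893 in limma. Bbs7, which forms the core of the complex with Bbs2 and Bbs9, read 859.9, 880.2 and 809.5 in homozygous arrays, against 743, 805 and 863 in heterozygous arrays, and Bbs9 read 649.9, 669 and 685 in homozygous arrays, against 743, 741 and 586 in heterozygous arrays. Both overlapped, at 0.08 ± 0.09 and -0.04 ± 0.10. Bbs4, a subunit added late in assembly, read 1357, 1382 and 1466 in homozygous arrays, against 1466, 1447 and 1517 in heterozygous arrays. Homozygous 3 lay within the heterozygous range and the other homozygous arrays below it, and the difference was -0.07 ± 0.07. Bbs5 and Bbs1 differed by 0.03 and -0.02. Bbs12 and Bbs10 encode chaperonin-like proteins that help to assemble the BBSome. Bbs12 read 223, 226 and 237 in homozygous arrays, against 239.9, 200.3 and 202 in heterozygous arrays, and Bbs10 read 226, 240.5 and 257 in homozygous arrays, against 218, 275 and 199 in heterozygous arrays. Both overlapped, both lay not far above the filter, which stood at a signal of 154.6, and they differed by 0.08 ± 0.13 and 0.06 ± 0.14.

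Tulp3 encodes a tubby-like adaptor that links IFT-A to membrane receptors bound for the cilium. Its signal was 619, 618 and 664 in homozygous arrays, against 881, 696 and 675 in heterozygous arrays. The groups did not overlap, but heterozygous 1 stood well above the other heterozygous arrays. The difference was -0.22 ± 0.11, with an unadjusted p of 0.0632 in limma, and without heterozygous 1 it was -0.11 with an unadjusted p of 0.282 in limma. Of its other probe sets, both below the filter, 1453082_at read 62.7, 11.8 and 13.4 in homozygous arrays, against 80.1, 107 and 133 in heterozygous arrays, without overlap, and 1418251_at read 73.4, 33.2 and 61.8 in homozygous arrays, against 83.9, 65.2 and 75.4 in heterozygous arrays, with overlap.

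Among the 7 genes of the Meckel syndrome (MKS) module of the transition zone, 5 were higher and 2 lower. Tctn3, a tectonic, had the lowest unadjusted p of all 37 genes. It read 1016, 959.7 and 920.0 in homozygous arrays, against 850.2, 776 and 713 in heterozygous arrays at 1424535_at. Every homozygous array exceeded every heterozygous one, and the mean signal was 1.24 times as high. The difference was 0.30 ± 0.09, with an unadjusted p of 0.00728 and an adjusted p of 0.951 in limma, and it stayed between 0.24 and 0.36 when single arrays were left out. It did not hold across probe sets: the second was at -0.17 ± 0.13, and over the mean of both the difference was 0.061, with an unadjusted p of 0.521 in limma. The other tectonics Tctn2 and Tctn1 differed by 0.06 ± 0.11 and 0.05 ± 0.08. B9d2, a B9 domain protein, read 884, 833 and 812 in homozygous arrays, against 910.2, 773 and 585 in heterozygous arrays. Heterozygous 3 was the lowest, heterozygous 2 also lay below every homozygous array, and heterozygous 1 lay above them all. Without heterozygous 3 the difference of 0.17 ± 0.13 was 0.006, while without heterozygous 1 it was 0.31 with an unadjusted p of 0.0267 in limma. Its partners Mks1 and B9d1 differed by 0.13 ± 0.09 and -0.09 ± 0.10. Mks1 read 710.3, 654 and 693 in homozygous arrays, against 667, 617 and 594 in heterozygous arrays, and only homozygous 2 fell within the heterozygous range. B9d1 read 1557, 1357 and 1599 in homozygous arrays, against 1659, 1779 and 1382 in heterozygous arrays, with overlap.

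Cep290, the last gene of the module, encodes a large protein between the microtubules and the membrane of the transition zone. It read 218, 336 and 356 in homozygous arrays, against 300.4, 319 and 375 in heterozygous arrays. Homozygous 1 was low, and without it the difference of -0.13 ± 0.17 was 0.06. Nphp4, the nephrocystin-4 gene and the only gene of the Nphp module here, read 606, 677 and 631 in homozygous arrays, against 769, 649.8 and 563 in heterozygous arrays, a difference of -0.04 ± 0.11.

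Several genes could be read at more than 1 probe set. Of the 37, 11 had more than 1 probe set above the filter, and the signs of the differences agreed for 6 and differed for 5. Probe sets of a gene were read on the same arrays and are not replicates, and whether they target the same transcripts is not known here. All 3 probe sets of Ift27 were lower without overlap between groups, a pattern that 5.01% of single probe sets showed. Its 1424648_at read 639, 566 and 599.6 in homozygous arrays, against 653, 714 and 872 in heterozygous arrays, a difference of -0.29 ± 0.11, and 1435736_x_at read 346, 336 and 339 in homozygous arrays, against 353, 487 and 454 in heterozygous arrays, a difference of -0.30 ± 0.13. At each of them heterozygous 1 was the lowest heterozygous array. The suffix x marks probe sets with probes that can match other transcripts, and 1424648_at does not carry it.

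Tctn3 was the gene whose probe sets disagreed most, by 0.47. Its second probe set, 1450324_a_at, read 263, 218 and 277 in homozygous arrays, against 308, 312 and 251 in heterozygous arrays, a difference of -0.17 ± 0.13 against 0.30 ± 0.09 at 1424535_at. There the groups overlapped and the heterozygous mean was the higher. All 4 probe sets of Kif3b were positive, from 0.03 to 0.17, and 1420986_s_at, which read 699.7, 769.5 and 712 in homozygous arrays, against 693, 670.5 and 629 in heterozygous arrays, did not overlap. For Bbs4, 1455823_at read 929.8, 969 and 921 in homozygous arrays, against 985, 1038 and 979 in heterozygous arrays, without overlap and at -0.09 ± 0.08, but 1434460_at was at 0.07 ± 0.09. Kif3c was at 0.01 and -0.13, and the 4 probe sets of Kif3a ran from -0.02 to 0.08.

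**Figure D4:**
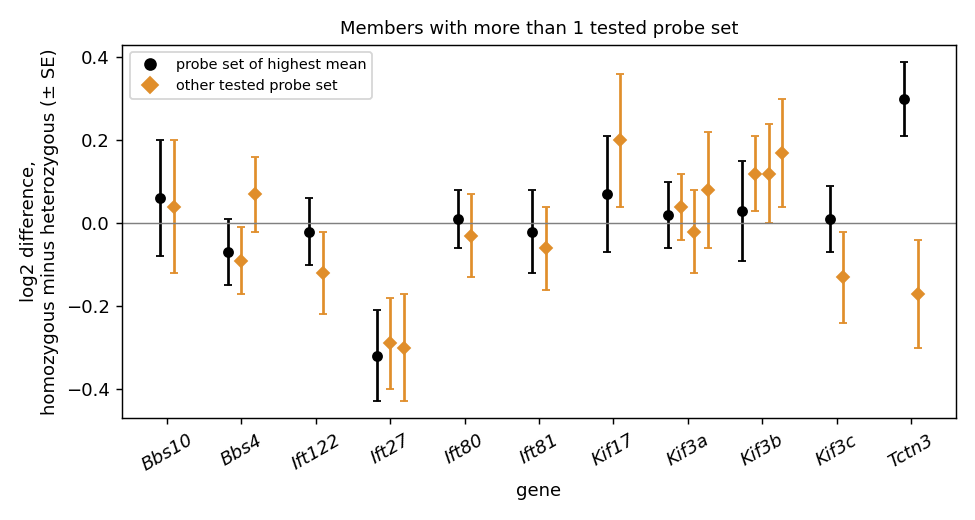
Log2 difference with SE (y axis) at every tested probe set of the 11 genes that had more than 1 (x axis), with the probe set of highest mean in black and the others in orange. The 3 probe sets of Ift27 lie together near -0.30, and those of Tctn3 lie at 0.30 and -0.17.

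The arrays most often at an extreme were the same for these genes as for all genes tested. Heterozygous 1 was the highest array for 13 of the 37 genes (35.1%), against 21.4% of all genes tested, and heterozygous 3 the lowest for 13 (35.1%), against 27.5%. In heterozygous 3 the genes averaged -0.060 from their mean over the arrays, and all genes -0.014. The role groups did not move alike there: IFT-B averaged 0.065, IFT-A -0.085, the motors -0.150, the BBSome -0.070 and the MKS module -0.120. In heterozygous 1 the order was turned, with IFT-B at -0.056 and IFT-A at 0.155. These are descriptions of single arrays and were not tested. In the same arrays the respiratory multiciliated cell markers averaged -0.096 in heterozygous 3 and 0.006 in heterozygous 1, and the mature olfactory neuron markers -0.248 and 0.146. The part of cell makeup in the values of the cilia genes was not tested.

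**Figure D5:**
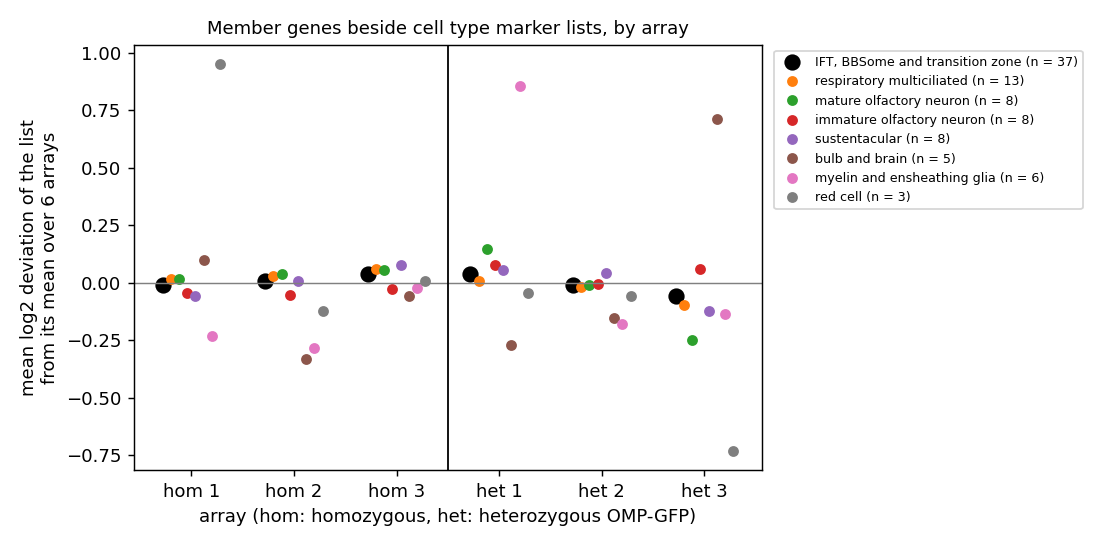
Mean log2 deviation of each gene list from its own mean over the 6 arrays (y axis) in the 3 homozygous and 3 heterozygous arrays (x axis), for the 37 cilia genes (black) and for marker lists of 7 cell types (colours). The cilia genes stay between -0.060 and 0.037. Immature olfactory neuron markers (8 genes) stay between -0.053 and 0.075, and respiratory multiciliated cell markers (13 genes) between -0.096 and 0.059. Red cell markers (3 genes) reach 0.952 in homozygous 1. Myelin and glia markers (6 genes) reach 0.854 in heterozygous 1, and bulb and brain markers (5 genes) 0.714 in heterozygous 3.

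Partners of these complexes that the symbol rule did not take in were read in the same fit. Of 59 further ciliary trafficking, transition zone and cilia transcription factor genes listed, 54 were found outside the rule and 51 tested. Rabl5, also listed, is another name of Ift22 and is not among these 54. Of the 51 tested, 0 passed adjustment in limma. At an unadjusted p under 0.05 in limma 2 were higher and 3 lower, beside 2.6% and 2.56% of all genes. Among the 13 tested IFT and motor subunits named outside the rule, Ttc30a1, which encodes a form of Ift70, read 418, 396 and 415 in homozygous arrays, against 465, 478 and 495 in heterozygous arrays. The groups did not overlap, and the difference was -0.21 ± 0.09 with an unadjusted p of 0.0445 in limma, but its near copy Ttc30b was at -0.04 and probes could be shared between them. Wdr19, an IFT-A core subunit, differed by 0.13 ± 0.08. Hspb11, which encodes Ift25, the binding partner of Ift27, was looked up after the value of Ift27 was seen. It read 1200.3, 1196 and 1121 in homozygous arrays, against 1262, 1164 and 1269.5 in heterozygous arrays, with overlap and a difference of -0.07 ± 0.08.

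Lztfl1, which encodes a BBSome regulator that acts with Ift27, read 1936, 2041 and 2116 in homozygous arrays, against 1839, 1740.0 and 1575 in heterozygous arrays. It was higher in every homozygous array, at 0.24 ± 0.08 with an unadjusted p of 0.0133 and an adjusted p of 0.951 in limma. Trim32, a ubiquitin ligase also named a BBS gene, differed by -0.20 ± 0.15. Rabl2, a small GTPase that binds IFT-B, had the lowest p of the 27 tested genes of its list. Its signal was 1157, 1288 and 1313 in homozygous arrays, against 1404, 1580.1 and 1832 in heterozygous arrays, a difference of -0.34 ± 0.10 with an unadjusted p of 0.00639 and an adjusted p of 0.951 in limma. The groups did not overlap, as for Ift27, and heterozygous 3 was the highest array for both. Arl2bp, a partner of the GTPases Arl2 and Arl3, read 2221, 2198 and 2261 in homozygous arrays, against 2561, 2582 and 2440.5 in heterozygous arrays, without overlap and at -0.18 ± 0.07, with an unadjusted p of 0.0214 in limma.

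Of the 6 cilia transcription factors tested, 5 were higher and 1 lower. Rfx3, a factor that binds the X-box shown above, read 3461, 3611 and 3539 in homozygous arrays, against 3109, 2860.1 and 3141 in heterozygous arrays. Each homozygous array exceeded each heterozygous one, and the difference was 0.22 ± 0.07 with an unadjusted p of 0.00804 and an adjusted p of 0.951 in limma. Rfx1 differed by 0.16 ± 0.14. The 10 genes with an X-box match split into 5 higher and 5 lower, from -0.07 to 0.17. Of the 23 tested genes whose windows held no match, 16 were higher and 7 lower, from -0.32 to 0.30. At an unadjusted p under 0.05 in limma stood 0 of the 10 and 3 of the 23, beside 5.16% of all genes, and with so few genes nothing is read from these counts.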

How the data were processed

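RNA of 6 olfactory epithelium samples was hybridised to Affymetrix mouse 430 2.0 arrays, 1 per sample, and grouped by title. The deposited intensity values are MAS5 signals, a tool that the submitters' processing notes name, and their range shows a linear scale, with array medians between 147.9 and 163.7. Precision is limited by there being only 3 arrays a group. Of 45101 probe sets, 34958 are annotated with 1 gene, 932 with several and 9211 with none. Only the first kind was named.

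Signals were taken as log2(signal + 38.8), an offset equal to the pooled 25th percentile. Probe sets with a mean at or above the median of all were kept, and the highest-mean probe set stood for a gene. Groups were compared with limma 3.58.1 in R 4.3.3 (lmFit, eBayes with intensity trend), adjusted by Benjamini-Hochberg over all 11426 genes and called at an adjusted p under 0.05. Values of further probe sets come from the same fit over 22514 probe sets. The procedure was tested on simulated data. Offset, scaling, filter, variance model, probe set choice, replicate block and left-out arrays were varied.

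The genes and lists were chosen with earlier results of these data known. Values per array are given for genes at an unadjusted p under 0.05 or without overlap, for the 2 of largest difference in each direction per role group, and for genes with discordant probe sets. Of the other cilia genes, those at an unadjusted p under 0.05 and the 2 of lowest p per list were named. Promoter windows come from RefSeq, GRCm38.p6.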

Additional observations from a re-analysis of the deposited data

How the results depend on the processing

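None of the 37 cilia genes was called at an adjusted p under 0.05 in limma under any alternative run, and the lowest adjusted p was 0.183. Over all genes, 0 were called, 0 also at a threshold of 0.1, between 0 and 1 with a single array left out, the 1 without heterozygous 1, and 8 without heterozygous 1 and 3 together. That last fit leaves 1 heterozygous array, assumed to vary like the other group. Of the probe sets, 0 were called, but 1 with the offset at the pooled median, between 0 and 25 with a single array left out, 25 without heterozygous 1, and 27 without heterozygous 1 and 3. The count of cilia genes higher at an unadjusted p under 0.05 was 2, and 1 at a common median, over the mean of all probe sets and without heterozygous 1 and 3, and between 2 and 3 with a single array left out. The count lower was 1 throughout. Their median difference was 0.029, but -0.013 at a common median, where all genes moved to -0.043, and between 0.006 and 0.054 with a single array left out.

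Of the 37 genes, 16 kept their sign in every alternative and 21 changed it in at least 1, in 50 of 624 pairs of gene and alternative. None of these reversals had an adjusted p under 0.05, and the cause was not tested. The reversed differences were as follows. When shifted to a common median, they were Bbs5 -0.015, Dync2li1 -0.00139, Ift52 -0.00392, Ift80 -0.0342, Kif3a -0.0234, Kif3b -0.0129 and Kif3c -0.0357. Those over the mean of all probe sets were Ift80 -0.0129 and Kif3c -0.062. When quantile normalized, they were Ift81 0.000441. Those without heterozygous 1 and 3 were Bbs1 0.0727, Bbs10 -0.167, Bbs5 -0.0898, Dync2li1 -0.0102, Ift122 0.0384, Ift57 0.0416, Ift74 -0.00616, Ift81 0.0278, Kif3b -0.12 and Kif3c -0.0223. With a single array left out, differences ran over these ranges, each crossing 0: Bbs1 -0.0966 to 0.0869, Bbs10 -0.0222 to 0.179, Bbs5 -0.0409 to 0.0859, Bbs9 -0.144 to 0.0174, Cep290 -0.25 to 0.061, Dync2li1 -0.029 to 0.0852, Ift122 -0.0671 to 0.0425, Ift140 -0.0855 to 0.00364, Ift20 -0.0317 to 0.107, Ift43 -0.141 to 0.034, Ift52 -0.00511 to 0.107, Ift57 -0.0962 to 0.0638, Ift80 -0.00183 to 0.0271, Ift81 -0.0857 to 0.0755, Kif17 -0.0409 to 0.195, Kif3a -0.0219 to 0.0593, Kif3b -0.0973 to 0.104, Kif3c -0.0582 to 0.057, Nphp4 -0.141 to 0.0704 and Tctn2 -0.00735 to 0.164.

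Same-numbered arrays of the groups did not deviate together (correlations of 0.016, -0.116 and -0.0471). With 3 arrays a group, each centred on its group mean, this cannot show whether same-numbered arrays were processed together. With the replicate block 0 genes were called, and 2 cilia genes were higher and 1 lower at an unadjusted p under 0.05 in limma. The filter at the 75th percentile left no value for 5 of the 37 genes.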
